A study of Mus musculus with 6 samples.

Results

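The genes described here are 9 retinoid genes of the mouse liver, namely Rdh16, Rdh16f2, Rdh7, Rdh9, Rdh11, Aldh1a1, Aldh1a7, Rbp4 and Cyp26a1. They are 9 of the 55357 genes in the deposited count table, found by matching its Ensembl identifiers to symbols of the GENCODE annotation of GRCm39. The set was chosen by the contrast it is described in, because Rdh16f2 had been seen among the clearer increases with esculetin, so the differences between groups are given for these genes as a description, with no p-value for any of them, and counts past thresholds support nothing. All 9 had enough counts to enter the fit over 14433 genes, and each is protein-coding.

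Liver RNA was sequenced from wild-type male C57BL/6J mice of 8-9 weeks, in 3 libraries of a vehicle group and 3 of an esculetin group. Every mouse was gavaged daily for 7 days. For 4 of these days the feed was a control diet with 10% of its kcal as fat, and for the final 3 it was a high-fat diet (HFD) with 60%, so both groups were HFD-fed when the livers were taken. The vehicle group received 2.5% Tween-80, and the other group received esculetin, a dihydroxycoumarin. Titles and protocol state a dose of 180 mg/kg/d where the treatment entry of the same samples states 90 mg/kg/d, so no dose is attached to the esculetin group here. Each library pooled the livers of a pair of mice, which means that the spread between libraries is that between pools, not between single animals, and nothing in the labels ties a vehicle library to an esculetin library. In whole liver, fewer cells of a type and less RNA per cell cannot be told apart.

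The liver takes up dietary retinol, stores most of it as retinyl esters in stellate cells, and releases it into blood bound to retinol-binding protein, which is made by hepatocytes. Within cells, retinol is oxidized reversibly to retinal by short-chain dehydrogenases of the Rdh and Dhrs families and by alcohol dehydrogenases, and retinal is oxidized irreversibly to retinoic acid by retinal dehydrogenases. Retinoic acid binds nuclear receptors of the RAR family and is cleared by hydroxylases of the CYP26 family, whose genes are themselves induced by retinoic acid. Several Rdh16-family enzymes also act on hydroxysteroids, so the family is not devoted to retinol alone.

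Of the 9 genes, 4 lie in a single cluster on chromosome 10 of GRCm39. Rdh9 occupies positions 127612255-127628566, Rdh16 occupies 127637001-127682434 and Rdh16f2 occupies 127702338-127713190, all on the forward strand, while Rdh7 follows 6.71 kb further on at 127719896-127724686 on the reverse strand. Rdh1, Rdh16f1 and Rdh19 are in the same cluster, which spans 129 kb from Rdh1 to Rdh7. Rdh11 is on chromosome 12 at 79220408-79239067 (reverse strand), 16.6 kb from its paralogue Rdh12, which had at most 6 counts in a library. The other 4 genes are on chromosome 19, with Aldh1a1 at 20469539-20622825 (forward strand), Aldh1a7 44.3 kb beyond it at 20667107-20704932 (reverse strand), Cyp26a1 at 37686241-37689984 (forward strand) and Rbp4 at 38105066-38113754 (reverse strand).

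The genes of this family are near copies of each other, so it matters whether a 150-base read can tell its genes apart. The coding sequence of Rdh16f2 was 91.5% identical to that of Rdh16 and 84.1% identical to that of Rdh7, and Rdh16 was 96.3% identical to Rdh9. The most similar stretch of 150 bases that Rdh16f2 and Rdh16 share within a single coding exon is shown first, and the one that Rdh16f2 and Rdh7 share is shown second, both in GRCm39 and read 5′ to 3′ on the strand of the gene, with capitals at the bases that differ between the pair.
Rdh16f2 (chr10:127712132-127712281, forward strand): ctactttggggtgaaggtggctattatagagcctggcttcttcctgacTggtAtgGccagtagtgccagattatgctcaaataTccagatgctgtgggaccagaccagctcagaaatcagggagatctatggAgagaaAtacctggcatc
Rdh16 (chr10:127648667-127648816, forward strand): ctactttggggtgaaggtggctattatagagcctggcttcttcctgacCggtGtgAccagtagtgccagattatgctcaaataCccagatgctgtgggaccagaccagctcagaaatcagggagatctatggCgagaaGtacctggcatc
Rdh16f2 (chr10:127702538-127702687, forward strand): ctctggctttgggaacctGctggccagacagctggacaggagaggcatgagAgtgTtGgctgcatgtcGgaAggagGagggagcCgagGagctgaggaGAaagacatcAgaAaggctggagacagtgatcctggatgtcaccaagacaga
Rdh7 (chr10:127724220-127724369, reverse strand): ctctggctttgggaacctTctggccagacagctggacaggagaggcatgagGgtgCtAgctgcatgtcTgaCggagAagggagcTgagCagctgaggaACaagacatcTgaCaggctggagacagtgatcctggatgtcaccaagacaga
In these stretches inside an exon, Rdh16f2 differed from Rdh16 at 6 of 150 bases and from Rdh7 at 13 of 150. Along the spliced coding sequence, which a read can cover across exon borders, the closest stretches of these pairs differed at 5 and 8 of 150 bases. Other genes of the family came closer to Rdh16f2 on that measure, with 2 differences for Rdh16f1 and 3 each for Rdh1 and Rdh9. No 150-base window of Rdh16f2 exons occurred in another gene of the family (0%), whereas 4.58% of the windows of Rdh16, 0.574% of those of Rdh7 and 58.8% of those of Rdh9 did. Rdh9 also shares 64.1% of its exon bases, on the same strand, with Rdh16f1, and Rdh16 shares at most 5.68% with the pseudogene Rdh18-ps, so the value of Rdh9 is uncertain in a way that the value of Rdh16f2 is not. Aldh1a1 and Aldh1a7 were 91.6% identical in coding sequence, with a closest stretch of spliced coding sequence that differed at 2 of 150 bases, and shared no whole window (0%). Rdh11, which was 50.6% identical to Rdh16, had none either. Antisense genes cover 11.8% of the exon bases of Rdh11, 6.01% of those of Aldh1a1 and 15.6% of those of Rbp4, and whether strand was used in counting is not given in the sources used here.

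Promoter sequences were read from RefSeq tables of build GRCm38.p6, which hold 13 promoters for all 9 genes, each from 250 bases before to 50 bases after the start. Those of Rdh16 and Rdh16f2 are shown because these genes were both higher with esculetin, with the letters TATAAA (or TTTATA for a match on the other strand) in capitals. The promoter of Cyp26a1 is shown because it holds a retinoic acid response element of the DR5 type, a direct repeat that RAR dimers are known to bind, with the element in capitals.
Rdh16 (chr10:127800903-127801202, forward strand): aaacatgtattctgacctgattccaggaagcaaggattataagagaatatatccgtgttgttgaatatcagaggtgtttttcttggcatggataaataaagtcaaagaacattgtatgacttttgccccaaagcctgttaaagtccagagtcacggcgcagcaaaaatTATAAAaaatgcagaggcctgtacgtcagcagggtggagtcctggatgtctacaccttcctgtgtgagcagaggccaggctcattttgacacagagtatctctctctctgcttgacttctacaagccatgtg
Rdh16f2 (chr10:127866226-127866525, forward strand): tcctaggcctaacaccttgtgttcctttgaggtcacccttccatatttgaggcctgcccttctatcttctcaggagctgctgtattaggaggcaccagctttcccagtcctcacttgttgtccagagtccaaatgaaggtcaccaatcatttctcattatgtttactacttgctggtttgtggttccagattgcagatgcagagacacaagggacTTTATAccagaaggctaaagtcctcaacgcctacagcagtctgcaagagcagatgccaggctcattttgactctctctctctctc
Cyp26a1 (chr19:37697558-37697857, forward strand): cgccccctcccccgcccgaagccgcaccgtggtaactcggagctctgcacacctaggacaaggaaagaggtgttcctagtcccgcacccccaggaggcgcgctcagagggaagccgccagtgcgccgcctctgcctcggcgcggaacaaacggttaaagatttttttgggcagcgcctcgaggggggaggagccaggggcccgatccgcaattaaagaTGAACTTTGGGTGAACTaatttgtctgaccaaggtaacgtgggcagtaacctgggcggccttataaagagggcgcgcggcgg
The TATAAA match began 82 bases before the start in Rdh16 and 35 bases before it in Rdh16f2. Of the 13 promoters, 5, each of another gene, had a match anywhere in the window, against 13.6% of 32851 promoters of the same length. The remaining matches began 28 bases before the start in Rbp4, 244 bases before it in Aldh1a7 and after it in Cyp26a1. The DR5 element of Cyp26a1 began 32 bases before the start, and 32 of the 32851 promoters (0.0974%) held one. Of the 9 genes, only Cyp26a1 held a DR5 in these windows. The letters TTGCNNAA, a core that C/EBP factors bind, were in a promoter of Aldh1a1 and of Rbp4 (2 of 13 promoters, against 10.8% of all). GCGTG, the core of the xenobiotic response element, was in a promoter of Rdh11 and of Rbp4 (2 of 13 promoters, against 32.4% of all), and TGACNNNGC, the core of the antioxidant response element, was in 0 (against 12.4%). Both strands were searched for each motif, and a match describes the letters in the window and not a bound site.

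Total counts per library lay between 27957713 and 34920922, with all 3 esculetin libraries deeper than the 3 vehicle libraries, and the TMM factors lay between 0.979 and 1.02. Values below are TMM-normalized counts scaled to a common library size (CPM), on which 3 counts correspond to between 0.0865 and 0.109 CPM. Markers of hepatocytes were high in all libraries, with the 8 genes of the list summing to between 87438 and 91327 CPM in vehicle libraries and between 82824 and 92271 CPM in esculetin libraries. The 9 stellate cell markers summed to 320-371 CPM with vehicle and 290-388 CPM with esculetin, and the 7 Kupffer cell and macrophage markers to 299.5-400.4 CPM and 309-317 CPM. For the 7 markers of sinusoidal endothelium the sums were 191-230.5 CPM and 202-233 CPM, for the 5 of cholangiocytes 39.5-80.4 CPM and 30.3-45.7 CPM, and for the 5 erythroid genes 127-155 CPM and 114-178 CPM. The adipocyte list was uneven, with Lep at 0 counts in every library, Adipoq and Plin1 at no more than 0.144 CPM, and a sum of 2933-3388 CPM against 2282-2558 CPM that was nearly all Car3, which hepatocytes also express. The remaining adipocyte marker, Cfd, was at 0 to 0.613 CPM with vehicle and 0.692 to 1.12 CPM with esculetin (log2 fold change 1.72, SE 0.72, unadjusted p = 0.0397, adjusted p = 0.393, edgeR). Past an unadjusted p-value of 0.05 and a fold change of 1.5 were 5 single markers, where 1.37% of all genes tested were in the higher and 1.76% in the lower direction. These were Cfd, Des of the stellate list and Hba-a2 of the erythroid list in the higher direction, and Spp1 of the cholangiocyte list and Cela2a of the acinar list in the lower. All markers entered the fit except in the adipocyte list, where 2 did, and the acinar list, where 1 did. Of 6 pancreatic acinar markers, 5 had 0 counts in every library, and the list summed to 0.645-0.715 CPM and 0.249-0.478 CPM. The groups overlapped in the summed level of 6 of these 8 lists, and their part in the differences below was not tested.

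Among the dehydrogenases of the Rdh16 family, Rdh16f2 was higher in every esculetin library. Its levels were 98.9, 76.8 and 79.0 CPM in vehicle libraries 1 to 3, and 156, 133 and 147 CPM in esculetin libraries 1 to 3. The lowest esculetin library thus stood above the highest vehicle library, and the SD of the vehicle group was 14.3% of its mean. Group means were 84.9 ± 12.2 CPM with vehicle and 145 ± 11.5 CPM with esculetin (SD, n = 3 each), a fitted log2 fold change of 0.77 with a standard error (SE) of 0.11, or 1.71-fold. Leaving out each library in turn moved this log2 value between 0.71 and 0.90.

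Rdh16, which gives the family its name and encodes a microsomal enzyme that oxidizes retinol and hydroxysteroids, was also higher with esculetin but varied widely among vehicle libraries. It measured 85.6, 42.3 and 33.7 CPM with vehicle and 90.4, 89.3 and 117 CPM with esculetin. Vehicle library 1 stood close to the lowest esculetin library while the other two vehicle libraries were far below, so the groups did not overlap but nearly touched. The means were 53.9 ± 27.8 CPM and 99.0 ± 15.8 CPM (SD, n = 3 each), with a fitted log2 fold change of 0.88 (SE 0.29). Without vehicle library 1 this value was 1.38, and without vehicle library 3 it was 0.63.

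Rdh7 was the most abundant family gene and barely differed between groups. It had 1262, 1290 and 1252 CPM with vehicle against 1303, 1294 and 1384 CPM with esculetin. The lowest esculetin library exceeded the highest vehicle library only narrowly, and the fitted log2 fold change of 0.07 was smaller than its SE of 0.073. Rdh9 was the least abundant of the 4, at 13.0, 9.02 and 9.70 CPM with vehicle and 10.1, 6.77 and 13.0 CPM with esculetin. The groups of Rdh9 overlapped fully, and its log2 fold change of -0.09 (SE 0.23) became 0.09 without vehicle library 1 and 0.13 without esculetin library 2. The uncertainty of Rdh9 from shared sequence, described above, applies to these values.

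**Figure D1:**
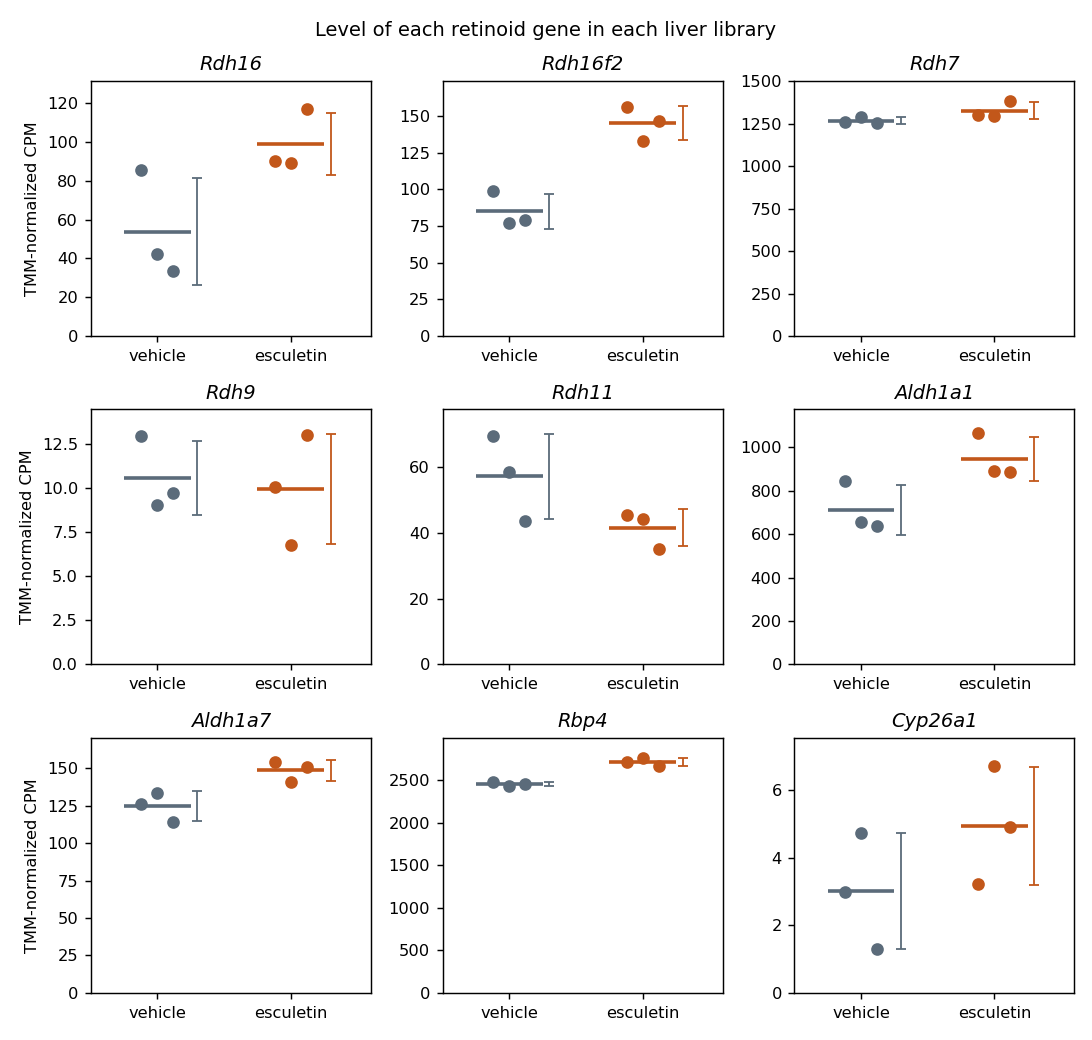
Level of each of the 9 genes (vertical axes, TMM-normalized CPM, each panel on its own scale from 0) in the 3 vehicle and 3 esculetin libraries (points in the order of the library numbers), with a line at the mean and a bar for 1 SD beside it. Rdh16f2 sat between 76.8 and 98.9 CPM with vehicle and between 133 and 156 CPM with esculetin, while the groups overlapped for Rdh9, Rdh11 and Cyp26a1.

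Within a library, the share of each gene in the summed counts of the 7 Rdh16-family genes (Rdh16, Rdh16f1, Rdh16f2, Rdh1, Rdh7, Rdh9 and Rdh19) does not depend on the scaling between libraries. Rdh7 made up most of the family, with 86.5%, 90.9% and 91.1% of family counts in the vehicle libraries and 83.6%, 84.9% and 83.3% in the esculetin libraries. Its share was lower in every esculetin library although its own level was not. The share of Rdh16f2 was 6.78%, 5.42% and 5.75% with vehicle and 10.0%, 8.74% and 8.84% with esculetin, which gives means of 5.98 ± 0.710% and 9.19 ± 0.703% (SD, n = 3 each). For Rdh16 the shares were 5.86%, 2.98% and 2.45% with vehicle and 5.80%, 5.86% and 7.06% with esculetin, and here the groups overlapped. Rdh9 held between 0.445% and 0.889% of family counts in all libraries. The ratio of Rdh16f2 to Rdh7 counts lay between 0.0596 and 0.0784 with vehicle and between 0.103 and 0.120 with esculetin, whereas that of Rdh16f2 to Rdh16 overlapped, at 1.16-2.34 and 1.25-1.73.

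**Figure D2:**
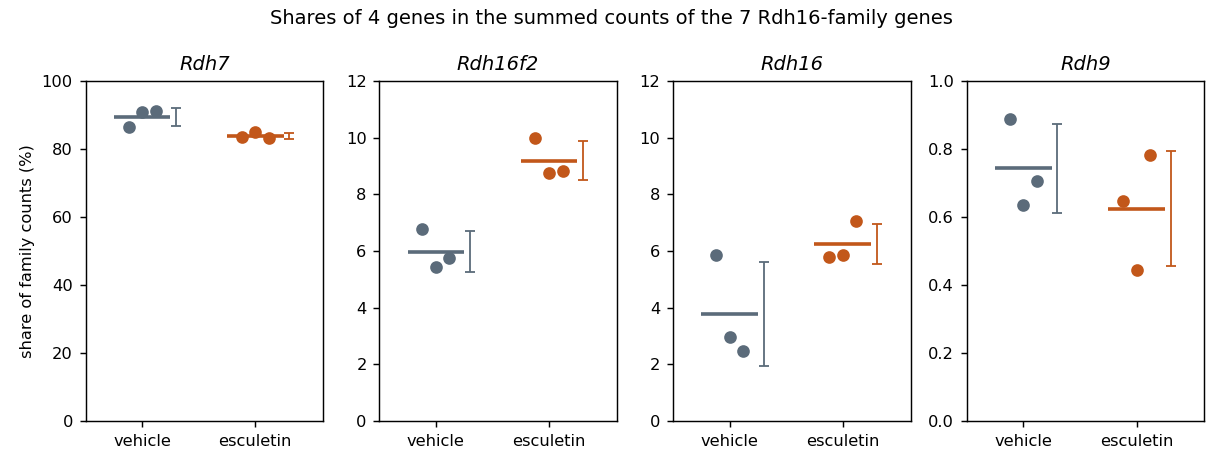
Share of Rdh7, Rdh16f2, Rdh16 and Rdh9 (vertical axes, percent, starting at 0 with different upper ends) in the summed counts of the 7 Rdh16-family genes, as points for the 3 vehicle and 3 esculetin libraries with the mean as a line and 1 SD as a bar. Rdh16f2 held 5.42-6.78% with vehicle and 8.74-10.0% with esculetin, and Rdh7 held at least 83.3% in every library.

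The remaining genes of the cluster were nearly silent. Rdh16f1 had 0 counts in every library, but 97.2% of its windows also occur in other family genes, so reads from it could not have been told apart from theirs. Rdh1 reached at most 0.537 CPM and Rdh19 at most 0.276 CPM, and neither entered the fit. Of the flanking genes, Sdr9c7, a short-chain dehydrogenase next to Rdh7, measured 64.2, 85.6 and 77.3 CPM with vehicle and 56.6, 63.0 and 55.4 CPM with esculetin, so every esculetin library was below every vehicle library. Its log2 fold change was -0.38 (SE 0.11, unadjusted p = 0.00652, adjusted p = 0.242, by edgeR with adjustment over all genes by Benjamini-Hochberg), a fold under 1.5. Hsd17b6, a hydroxysteroid and retinol dehydrogenase further along the chromosome, had a log2 fold change of 0.05 (SE 0.15, unadjusted p = 0.768), and Rdh5, an 11-cis retinol dehydrogenase elsewhere on chromosome 10, one of 0.16 (SE 0.25, unadjusted p = 0.531, same test). The value of Rdh5 is uncertain because 70.7% of its exon bases belong to Bloc1s1 as well.

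Rdh11, a microsomal retinal reductase outside the cluster, was the one member with a lower mean beyond its SE. Its levels were 69.2, 58.3 and 43.6 CPM with vehicle and 45.4, 44.1 and 35.03 CPM with esculetin. Vehicle library 3 fell below esculetin libraries 1 and 2, so the groups overlapped. The means were 57.0 ± 12.8 CPM and 41.5 ± 5.66 CPM (SD, n = 3 each), a log2 fold change of -0.46 (SE 0.16), which was -0.62 without vehicle library 3 and -0.30 without vehicle library 1. The ratio of Rdh16 to Rdh11 lay between 0.725 and 1.24 with vehicle and between 1.99 and 3.35 with esculetin. Since the mean of Rdh16 was higher and that of Rdh11 lower with esculetin, this gap follows from the levels of each gene. It adds no support to them.

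Aldh1a1, a cytosolic retinal dehydrogenase that makes retinoic acid, was measured at 845, 655 and 636 CPM with vehicle and at 1064, 891 and 887 CPM with esculetin. All 3 esculetin libraries exceeded the highest vehicle library. The fitted log2 fold change was 0.41 (SE 0.12), or 1.33-fold. Aldh1a7, its rodent paralogue on the opposite strand next to it, had 126, 134 and 114 CPM with vehicle and 154, 141 and 151 CPM with esculetin. Here too the groups were apart, with a log2 fold change of 0.25 (SE 0.083). The ratio of Aldh1a7 to Aldh1a1 overlapped between groups, at 0.150-0.204 with vehicle and 0.145-0.170 with esculetin.

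Rbp4, which encodes the plasma carrier of retinol, was the most abundant of the 9 genes, at rank 49 of 14433 by mean CPM. It measured 2481, 2430 and 2455 CPM with vehicle and 2712, 2753 and 2664 CPM with esculetin. The vehicle libraries lay within 1.04% (SD) of their mean, and all esculetin libraries were above them by a small margin, for a log2 fold change of 0.14 (SE 0.072), or 1.10-fold. Cyp26a1, the retinoic acid hydroxylase, was the least abundant, with 36 to 233 counts per library. It stood at 3.00, 4.73 and 1.31 CPM with vehicle and at 3.23, 6.72 and 4.90 CPM with esculetin. The groups overlapped and the SD of the vehicle group was 56.7% of its mean. The log2 fold change of 0.71 (SE 0.40) for Cyp26a1 was 1.197 without vehicle library 2 and 0.36 without vehicle library 3, so single libraries decided its size.

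Counted over the 9 genes, 2 (Rdh16 and Rdh16f2) were past the thresholds used by the study, an unadjusted p-value under 0.05 with a fold change over 1.5, in the higher direction, where 1.37% of all genes tested were. In the lower direction 0 of 9 were, against 1.76% of all genes. Rdh16 was no longer past them with DESeq2, or with edgeR without vehicle library 2 (log2 fold change 0.73). Cyp26a1 passed without vehicle library 2 and without esculetin library 1 (0.94), and Rdh11 passed without vehicle library 3. With an adjusted p-value under 0.05 the count was 0 of 9 by edgeR, against 0.0416% of all genes, and an unadjusted p-value under 0.05 was found for 4 higher and 1 lower of the 9, against 6.53% and 5.32% of all genes. By DESeq2 the adjusted count was 1 (Rdh16f2), against 1.55% of the 12472 genes it adjusted, and by limma-voom 0, against 0.0346%. All 3 esculetin libraries were above all 3 vehicle libraries for 6 of 9 genes, against 9.20% of all genes, and below them for 0 of 9, against 8.24%. Nothing is read from these counts, since the genes were chosen with this contrast known.

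The other genes of retinoid biology were taken from a list of 57 that leaves out the 9. Of these, 44 were tested, and the estimate was higher with esculetin for 27 and lower for 17. The median log2 fold change was 0.07 over the 44 genes and -0.01 over all genes tested, with a median SE of 0.13 for the list. Only Cyp26b1 passed the thresholds, 1 gene higher and 0 lower, where 1.37% and 1.76% of all genes did. An unadjusted p-value under 0.05 was reached by 7 genes, 5 higher and 2 lower of the 44, where 6.53% and 5.32% of all genes did so, and an adjusted one under 0.05 by 0 with edgeR, by 1 with DESeq2 (Aox3) and by 0 with limma-voom. Among the 13 that were not tested, Stra6, Crabp1, Crabp2, Rbp7 and Rdh8 had 0 counts in every library, which at these depths allows up to 0.109 CPM. Most low counts in these libraries were even, and if a fragment was counted as 2 the limit is 0.219 CPM.

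Cyp26b1, the other CYP26 retinoic acid hydroxylase expressed in liver, was at 3.98, 3.44 and 2.84 CPM with vehicle and at 3.48, 9.80 and 5.91 CPM with esculetin. Esculetin library 1 lay within the vehicle range while the other two lay above it, with library 2 the highest. Its log2 fold change was 0.90 (SE 0.33, unadjusted p = 0.0207, adjusted p = 0.325, edgeR). Without esculetin library 2 it was 0.46 (unadjusted p = 0.122), without vehicle library 2 the unadjusted p was 0.0521, without vehicle library 3 it was 0.0632, and limma-voom gave 0.0548, so that the call was lost in each case. Lrat, the retinol esterifying enzyme and a defining marker of stellate cells, was at 20.8 CPM in esculetin library 1 against 36.7 and 35.6 CPM in the other two and 32.0-34.1 CPM with vehicle. The 9 stellate markers together were also lowest in esculetin library 1 (290 CPM), a sum that was mostly Dcn. Of these 9, 1 passed the thresholds in the higher direction and 0 in the lower, where 1.37% and 1.76% of all genes tested did. It was Des, an intermediate filament gene of stellate and muscle cells. Des was at 2.39, 3.43 and 3.02 CPM with esculetin against 1.87, 1.72 and 1.90 CPM with vehicle (log2 fold change 0.69, SE 0.22, unadjusted p = 0.0114, adjusted p = 0.273, edgeR). Within the esculetin group Des had the same order of libraries as Cyp26b1, with library 2 the highest and library 1 the lowest. This order was not particular to Des, since Lrat, Reln, Pdgfrb and Lhx2 of the stellate list had it too. Hgf, Colec11 and Dcn were also lowest in library 1 but highest in library 3, and Ngfr was lowest in library 2. An antisense gene covers 5.60% of the exon bases of Des. The log2 fold changes of the other 8 stellate markers lay between -0.60 and 0.14, and the part of these markers in the difference of Cyp26b1 was not tested. The ratio of Cyp26a1 to Cyp26b1 overlapped between groups, at 0.462-1.38 with vehicle and 0.685-0.929 with esculetin.

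For transport and binding, 3 of 8 genes were tested and 0 passed. Ttr, which carries retinol-binding protein in plasma, had a log2 fold change of 0.0021 (SE 0.075), with 4833 ± 170 CPM in the vehicle and 4840 ± 68.4 CPM in the esculetin group (SD, n = 3 each), and Stra6l, the hepatic receptor for Rbp4, one of -0.07 (SE 0.092). Of 7 genes of retinyl ester storage and hydrolysis, 6 were tested and 0 passed both thresholds. Lpl, a lipase that hydrolyses triglycerides and retinyl esters of chylomicrons, was 35.8, 46.4 and 36.0 CPM with vehicle and 22.6, 27.9 and 32.9 CPM with esculetin. All its esculetin libraries were below the vehicle libraries (log2 fold change -0.50, SE 0.15, unadjusted p = 0.00702, adjusted p = 0.246, edgeR), a fold under 1.5, which was over 1.5 without esculetin library 3 (-0.64). Pnpla3, a lipase that hydrolyses retinyl esters in stellate cells, had the largest estimate of the list (log2 fold change -1.20, SE 0.72, unadjusted p = 0.128, edgeR), at 0.109 to 1.77 CPM with vehicle and 0.299 to 0.466 CPM with esculetin, so the groups overlapped. Without vehicle library 3, Pnpla3 was past both thresholds (-1.71). Pnpla2, the adipose triglyceride lipase, was above the vehicle libraries in all 3 esculetin libraries, with a log2 fold change of 0.26 (SE 0.097, unadjusted p = 0.0223, adjusted p = 0.337, edgeR), and an antisense gene covers 22.0% of its exon bases.

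Among 20 other retinol and retinal oxidoreductases, 15 were tested and 0 passed. The estimate was higher with esculetin for 14 of the 15, where it was higher for 48.5% of all genes tested. The median log2 fold change of the 15 was 0.10, below their median SE of 0.14, and none was over 0.38. This list leaves out Rdh11, Rdh9 and Sdr9c7, whose estimates were lower, and Rdh16, Rdh16f2 and Rdh7, whose estimates were higher. Adh1, the main hepatic alcohol dehydrogenase that also oxidizes retinol, was the most abundant at 1318 ± 118 CPM with vehicle and 1509 ± 55.3 CPM with esculetin (SD, n = 3 each), a log2 fold change of 0.20 (SE 0.087, unadjusted p = 0.0490, adjusted p = 0.418, edgeR). Adh5, the class of alcohol dehydrogenase that clears formaldehyde, had one of 0.14 (SE 0.082, unadjusted p = 0.123). Dhrs7 was singled out after its values were seen, with a log2 fold change of 0.38 (SE 0.13, unadjusted p = 0.0179, adjusted p = 0.311, edgeR). For the 3 genes of beta-carotene uptake and cleavage, 0 passed, and Scarb1, a scavenger receptor that takes up carotenoids, and Bco2, a carotene-cleaving oxygenase, had log2 fold changes of 0.08 (SE 0.11) and -0.12 (SE 0.12).

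The 6 other dehydrogenases and oxidases that can act on retinal included Aox3, a hepatic aldehyde oxidase, which had the smallest p-value of the whole list. It was at 1091, 1421 and 1276 CPM with vehicle and at 826, 829 and 983 CPM with esculetin. The highest esculetin library was below the lowest vehicle library. Its log2 fold change was -0.52 (SE 0.11, unadjusted p = 0.00102, adjusted p = 0.152, edgeR), a fold under 1.5, and the adjusted p was 0.00226 with DESeq2. Aox3 was past both thresholds without vehicle library 1 (log2 fold change -0.62) and without esculetin library 3 (-0.61). Aox1, a paralogue that was singled out after its values were seen, differed in the other direction, with a log2 fold change of 0.34 (SE 0.12, unadjusted p = 0.0224, adjusted p = 0.337, edgeR). Aldh8a1, which can oxidize 9-cis-retinal, was level, at 348 ± 24.5 and 342 ± 8.96 CPM (SD, n = 3 each). Cyp2s1, another P450 credited with retinoic acid hydroxylation, had a log2 fold change of 0.13 (SE 0.39).

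Of the 8 retinoid receptors and corepressors, all were tested and 0 passed, with log2 fold changes from -0.29 to 0.63 and a median of -0.02. Rxra, the main hepatic partner of the RAR family, was at 390 ± 9.04 CPM with vehicle and 379 ± 15.9 CPM with esculetin, and Ncor1, a corepressor, at 84.2 ± 1.30 and 82.3 ± 8.05 CPM (SD, n = 3 each). Among 9 genes known to be induced by retinoic acid in some tissue, 7 were tested, 4 estimates were higher and 3 lower, and 1 passed, which was Cyp26b1 again. Rarres2, which encodes chemerin, had a log2 fold change of 0.16 (SE 0.080, unadjusted p = 0.0685), and Dhrs3, a retinal reductase induced by retinoic acid, one of 0.07 (SE 0.080, unadjusted p = 0.391, edgeR). Antisense genes cover 31.9% of the exon bases of Rarres2 (Lrrc61) and 31.2% of those of Rarb (Top2b). For Ncor1 they cover 19% (Ttc19) and 5.57% (Pigl). A gene can stand in several of these lists.

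**Figure D3:**
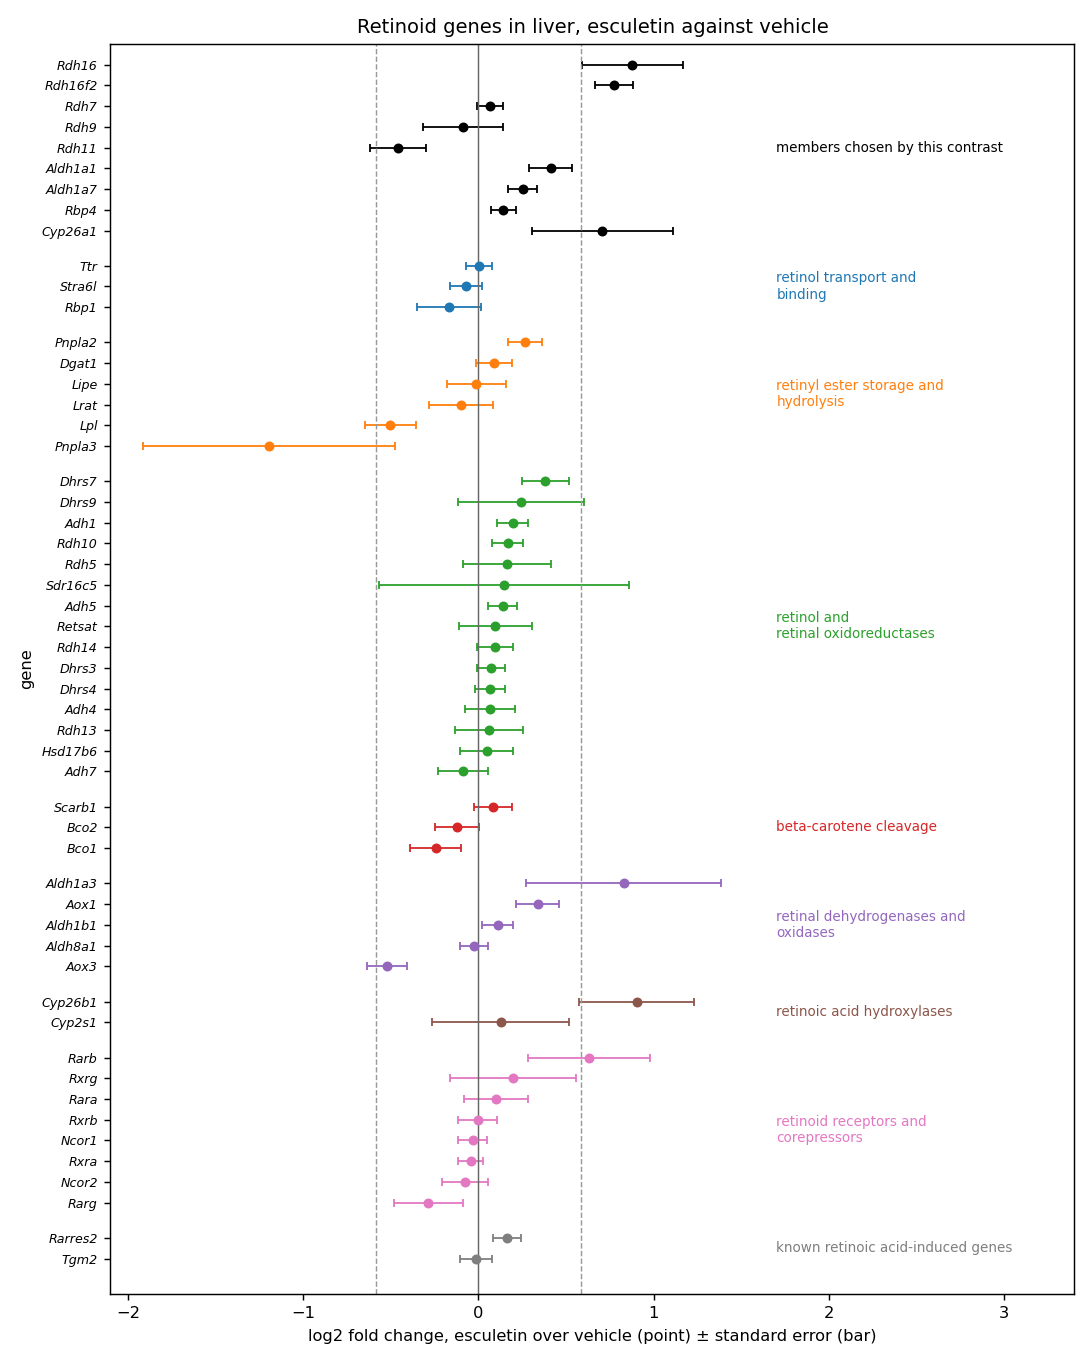
Log2 fold change of esculetin over vehicle (horizontal axis, points) with its standard error (bars) for the 9 genes, in black, and the 44 tested genes of the retinoid list, coloured by role with a gene of several roles drawn once under the first. Dashed lines mark a fold change of 1.5 in either direction, and beyond the right line lie Rdh16, Rdh16f2, Cyp26a1, Cyp26b1, Aldh1a3 and Rarb, of which Aldh1a3 and Rarb averaged at most 1.23 CPM in either group, while beyond the left line lies Pnpla3 (-1.20), which averaged at most 0.893 CPM.

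Levels of different genes were compared as CPM per kb of merged exons. In this order Rbp4 came first at 1810 ± 100 CPM per kb (SD over the 6 libraries), then Rdh7 at 558 ± 20.02, Rdh16f2 at 90.4 ± 27.3, Aldh1a1 at 77.2 ± 15.02, Aldh1a7 at 25.9 ± 2.87, Rdh11 at 11.8 ± 2.95, Rdh16 at 11.4 ± 4.76, Rdh9 at 2.86 ± 0.671 and Cyp26a1 at 2.002 ± 0.942. The ranges over all 6 libraries overlapped between neighbours for Rdh16f2 and Aldh1a1, for Rdh11 and Rdh16, and for Rdh9 and Cyp26a1. Within the esculetin group Rdh16f2 (104-122 CPM per kb) was above Aldh1a1 (82.6-99.1 CPM per kb) in every library, while with vehicle the pair overlapped. Rdh11 stood above Rdh16 in the vehicle means (13.7 and 8.03 CPM per kb) and below it in the esculetin means (9.98 and 14.8 CPM per kb), and the same order held in each library of the group. With the longest transcript as length, Aldh1a1 moved above Rdh16f2 and Rdh16 above Rdh11, while the other 5 genes kept their places. On that length Rdh16 was above Rdh11 in the vehicle means too (16.4 and 14.4 CPM per kb), but among the vehicle libraries only in library 1 (26.0 and 17.5 CPM per kb). It was below Rdh11 in vehicle libraries 2 (12.9 and 14.7 CPM per kb) and 3 (10.3 and 11.0 CPM per kb). Without library 1 the vehicle means were 11.6 and 12.8 CPM per kb, an order opposite to that of the esculetin means. Without library 2 the vehicle means were 18.2 and 14.2 CPM per kb, and without library 3 they were 19.5 and 16.1. In both of these cases Rdh16 was above Rdh11, as in the esculetin means, so the difference in order depended on the length and the library. The ratio of Rdh7 to Rdh16f2 per kb, taken in each library and then averaged over the 6 libraries, was 6.65. The ratio of the group means, another measure, was 8.18 with vehicle and 5.001 with esculetin.

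**Figure D4:**
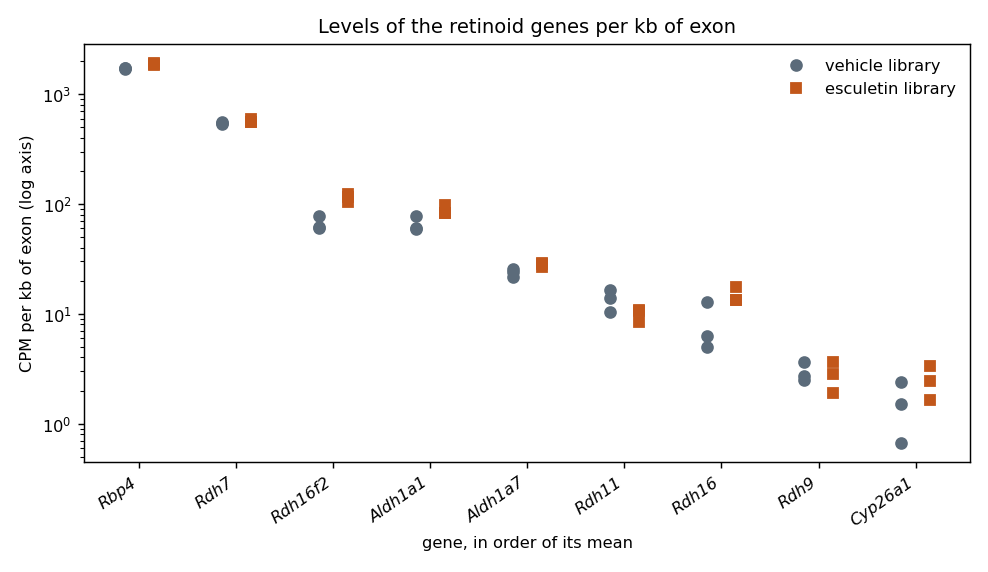
Level of each of the 9 genes per kb of exon (vertical axis, CPM per kb, log axis) in the 3 vehicle (circles) and 3 esculetin libraries (squares), ordered by the mean over all 6. Levels ran from 0.660 CPM per kb for Cyp26a1 in vehicle library 3 to 1930 for Rbp4 in esculetin library 2, and on this length Rdh11 was above Rdh16 with vehicle and below it with esculetin.

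The genes whose levels over the 6 libraries were most like those of Rdh16f2 were sought among 12128 tested genes with a mean of at least 1 CPM that are in none of the retinoid lists. Among the 5 with the highest Pearson correlation of log2 CPM were Psme1 (r = 0.994), a proteasome activator subunit, Atp5mk (r = 0.990), a subunit of ATP synthase, Mgmt (r = 0.988), a DNA repair methyltransferase, and Por (r = 0.988), the electron donor of microsomal P450 enzymes. These are correlations over 6 libraries in 2 groups, ranked from many genes, and genes of 1 library share its depth and its mice. These 4 were higher in every esculetin library, and they were chosen for their likeness to a gene that was. Of the 4, Mgmt came closest in size, at 10.1 ± 1.28 CPM with vehicle and 16.3 ± 1.95 CPM with esculetin (SD, n = 3 each) and a log2 fold change of 0.69, and Por was at 203 ± 24.96 and 290 ± 15.8 CPM, with one of 0.51. Atp5mk followed the same pattern at a log2 fold change of 0.16.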

How the data were processed

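The labels describe livers of vehicle-treated and esculetin-treated HFD-fed mice, 3 libraries each. Per the paper's methods and the submitters' processing notes, the authors aligned 150-base paired reads to GRCm39 with HISAT2 2.2.1 and counted them with featureCounts. They deposited whole-number counts per gene, without normalization. The notes also name mm10. The annotation release, the strand setting and the handling of reads that fit several genes are not given in the sources used here. Among counts from 1 to 10, between 70.7% and 72.9% were even in each library. No column was left unused.

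Symbols, coordinates and exon lengths came from GENCODE M39 (54749 of 55357 identifiers matched). Genes were filtered with filterByExpr and normalized with TMM, and the groups were compared over all 14433 that remained by a quasi-likelihood fit (edgeR 4.0.16, R 4.3.3) with Benjamini-Hochberg adjustment, after the script had been tested on simulated data. Calls used the thresholds of the study, which used limma (p under 0.05 without adjustment, fold change over 1.5). SE was taken as log2 fold change over √F. P-values measure the spread between pools of mice. Between replicates the chi-square per gene was at least 26.6 (about 1 for copies of a library), so none was a copy. Correlations used log2(CPM + 0.05). Motifs and 150-base windows were searched with Python 3.11.15.

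The genes, the lists and the rules were chosen with earlier results of these data known. Named singly were the 9 genes, 6 neighbours of Rdh16 (Rdh16f1, Rdh1, Rdh19, Rdh5, Hsd17b6, Sdr9c7), list genes past the thresholds, the 2 most abundant tested genes of each role, and the 5 genes most like Rdh16f2, of which 1 is not reported here. Lrat, Car3, Cfd, Des, Dcn, Reln, Pdgfrb, Lhx2, Hgf, Colec11, Ngfr, Hba-a2, Spp1, Cela2a, Rdh12, Aox1, Dhrs7, Pnpla3, Aldh1a3, Rarb and the genes at 0 were named after their values were seen. One listed gene, Pnpla4, matched no identifier. Alternatives were DESeq2 1.42.0, limma-voom (limma 3.58.1), scaling by DESeq2 size factors or by total counts, leaving low genes in or asking for 10 counts in all libraries, dropping single libraries, a replicate block, other call rules, and longest transcripts. Counts of adjusted p-values under some of these, and longest transcripts within groups and without single vehicle libraries, were added after the data were seen.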

Additional observations from a re-analysis of the deposited data

How the results depend on the processing

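For the 9 genes, the number past both thresholds was 2 as reported and 1 with DESeq2 (Rdh16f2), 3 without the filter (Cyp26a1 added), 5 with no threshold on the fold change, 0 with an adjusted p-value under 0.05, and between 2 and 3 when each library was left out in turn. For the other retinoid genes it was 1 as reported, 0 with limma-voom, 2 without the filter (Cyp26b1 and Pnpla3), 7 with no threshold on the fold change, 0 with an adjusted p-value under 0.05, and between 0 and 4 when libraries were left out (Aox3, Aldh1a3 and Rarb added without vehicle library 1, Aox3 and Lpl without esculetin library 3, and Pnpla3 in place of Cyp26b1 without vehicle library 3). Without the filter, 4 of the 9 genes had an adjusted p-value under 0.05, as had 5 of the 50 list genes and 1.94% of all 24638 genes then tested. Past both thresholds were 3.13% of all genes as reported, 2.88% with DESeq2, 3.06% with limma-voom and 3.15% without the filter, and 11.9% were with no threshold on the fold change. Ratios per kb were taken in each library and then averaged. With the longest transcript as length, that of Rdh7 to Rdh16f2 was 9.15 in place of 6.65 and that of Aldh1a1 to Rdh16f2 was 1.52 in place of 0.883. Without Rdh9 and Rdh16f1, which share over 20% of their windows, the share of Rdh16f2 was 6.03% with vehicle and 9.25% with esculetin.

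With a replicate block, 3 of the 9 genes passed both thresholds (Cyp26a1 with the reported 2) and 1 list gene (Cyp26b1) did, against 2.76% of all genes, and the adjusted count was 1 of 9 (Rdh16f2), against 0.104%. Same-numbered libraries come from different mice and did not deviate together over all genes (correlations of -0.069, -0.011 and 0.0027). Nothing in the labels ties them beyond the number, and a batch that acts on some genes only was not tested. Of the log2 fold changes of the 9 genes, that of Rdh9 changed sign when a library was left out, between -0.33 and 0.13, and the others kept their sign in all alternatives run. Cyp26a1 had the fewest counts of the 9 genes, with 36 in its lowest library. The cause of these changes was not tested.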
